A study of Saccharomyces cerevisiae with 18 samples.

Results

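The purine synthesis genes described here are the 10 budding yeast ADE genes ADE1, ADE2, ADE3, ADE4, ADE5,7, ADE6, ADE8, ADE12, ADE13 and ADE17. They were chosen by systematic identifier rather than by a measured value, though with earlier results of these data known. They are 10 of the 7036 features counted. The identifiers of those not printed with a sequence are YGR204W for ADE3, YGL234W for ADE5,7, YGR061C for ADE6, YNL220W for ADE12 and YLR359W for ADE13. Poly(A) RNA was sequenced from asynchronous Saccharomyces cerevisiae cultures of 3 strains in the S288C background, with 6 libraries a strain. The question was whether acetylation of residue K467 of Nup60, a protein of the nuclear pore basket, bears on transcription. The K467N strain (nup60-K467N-GFP::HIS3(S.kluyveri)) carries the substitution used to mimic acetylated lysine. The K467R strain (nup60-K467R-GFP::HIS3MX6) carries the one used to mimic the deacetylated state. The WT strain (NUP60-GFP::HIS3(S.kluyveri)) is the control. All 3 strains thus express Nup60 fused to GFP, and K467R differs from the other 2 strains in its marker as well as in the substitution, so marker and substitution cannot be told apart there. All cultures grew in rich glucose medium with added adenine. No culture without adenine was analysed here, so what adenine does to these genes cannot be read from the values. The labels do not state whether a strain's 6 libraries were separate cultures, so p-values and intervals measure only the spread between these libraries, which may be technical.

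Budding yeast builds purines on phosphoribosyl pyrophosphate (PRPP) in a linear series of steps that ends in inosine monophosphate (IMP), from which separate branches lead to AMP and GMP. Most ADE genes are activated by the transcription factors Bas1 and Pho2 when a pathway intermediate accumulates. Adenine taken up from the medium is converted to AMP and is known to lower this activation. The core DNA sequence recognised by Bas1, TGACTC, also lies within TGACTCA, the sequence of Gcn4, the activator of amino acid synthesis genes.

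Gene counts summed to 12395725 to 19093010 per library, of which the ADE genes together took 0.254 to 0.28%. All 10 genes passed the filter on low counts, as did 5660 features in all, and the lowest count of an ADE gene in any library was 407. Every stretch of 50 bases in their coding sequences occurs once in the R64 reference genome and no annotated gene overlaps them. No pair of the 153 pairs of libraries had identical counts. The substitutions cannot be checked from counts per gene. In CPM, a gene's count per 1000000 gene counts with TMM-scaled library sizes, NUP60 itself had 82.7 to 90.9 in K467N, 84.8 to 94.4 in K467R and 77 to 93.1 in WT. Library K467R 1 stood apart from the other K467R libraries, with 33.9% of all tested genes more than 0.2 log2 units from their strain mean. The next highest share was 27.8%, in library K467N 2, and the other 16 libraries had shares of 6.33 to 19.9%.

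Start-codon windows are printed for 6 genes to which the results return. No expression value or test used these sequences. ADE1 and ADE8 varied most alike across libraries. ADE2 lay mostly on the other side of its strain mean from ADE1, a relation that was weaker with coding length accounted for. ADE17 and ADE16 encode the same enzyme at very different levels. ADE4 encodes the entry enzyme, and its window lacks the motif. Each window runs from 250 bases before the start codon through the first 50 coding bases, 5′ to 3′ on the gene's strand, from the RefSeq R64 genome. Capitals mark TGACTC or its reverse complement GAGTCA. The build behind the counts is not given in the sources used here, and the windows were matched to the counts by gene identifier alone. The windows lie at chrI:169125-169424 on the plus strand for ADE1 (YAR015W), at chrIV:1288810-1289109 on the minus strand for ADE8 (YDR408C), and at chrXV:566142-566441 on the minus strand for ADE2 (YOR128C). Those of ADE17 (YMR120C), ADE16 (YLR028C) and ADE4 (YMR300C) lie on the minus strand at chrXIII:509231-509530, chrXII:201266-201565 and chrXIII:867042-867341.
ADE1: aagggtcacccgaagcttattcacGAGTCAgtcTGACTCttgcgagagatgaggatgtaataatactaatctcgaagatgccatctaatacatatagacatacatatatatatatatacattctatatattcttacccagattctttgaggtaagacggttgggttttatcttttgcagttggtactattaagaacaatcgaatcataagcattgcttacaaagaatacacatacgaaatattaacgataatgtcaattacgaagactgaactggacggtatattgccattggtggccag
ADE8: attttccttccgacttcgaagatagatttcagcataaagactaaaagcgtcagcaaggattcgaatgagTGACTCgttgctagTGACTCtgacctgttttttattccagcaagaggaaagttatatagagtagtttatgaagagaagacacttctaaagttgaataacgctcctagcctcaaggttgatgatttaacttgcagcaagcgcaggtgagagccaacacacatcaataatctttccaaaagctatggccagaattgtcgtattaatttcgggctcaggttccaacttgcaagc
ADE2: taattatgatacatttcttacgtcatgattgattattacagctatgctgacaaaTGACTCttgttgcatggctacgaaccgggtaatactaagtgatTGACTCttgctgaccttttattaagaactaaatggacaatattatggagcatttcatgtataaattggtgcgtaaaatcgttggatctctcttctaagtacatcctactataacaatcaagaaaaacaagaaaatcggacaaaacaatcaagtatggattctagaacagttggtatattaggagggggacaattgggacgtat
ADE17: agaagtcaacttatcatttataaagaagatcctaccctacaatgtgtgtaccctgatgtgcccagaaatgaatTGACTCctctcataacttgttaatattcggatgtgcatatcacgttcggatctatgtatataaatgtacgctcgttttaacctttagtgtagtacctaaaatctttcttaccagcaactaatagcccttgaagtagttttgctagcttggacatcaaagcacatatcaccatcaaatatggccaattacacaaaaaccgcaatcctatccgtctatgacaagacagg
ADE16: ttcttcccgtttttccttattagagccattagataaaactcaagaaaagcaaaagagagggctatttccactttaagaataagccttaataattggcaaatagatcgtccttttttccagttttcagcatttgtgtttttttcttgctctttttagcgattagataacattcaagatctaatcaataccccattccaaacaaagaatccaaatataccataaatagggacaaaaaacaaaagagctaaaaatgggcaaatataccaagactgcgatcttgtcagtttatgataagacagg
ADE4: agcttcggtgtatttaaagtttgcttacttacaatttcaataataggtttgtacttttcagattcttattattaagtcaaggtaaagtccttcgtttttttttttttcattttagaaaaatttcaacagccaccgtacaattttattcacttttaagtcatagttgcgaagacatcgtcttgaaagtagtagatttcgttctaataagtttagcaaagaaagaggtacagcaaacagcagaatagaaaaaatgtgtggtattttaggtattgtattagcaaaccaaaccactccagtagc

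A TGACTC on either strand was found in 8 of the 10 ADE windows, against 479 of 6007 windows of the same length (7.97%) over all genes with a coding sequence in R64. ADE1, ADE2, ADE5,7 and ADE8 held 2 matches each and ADE3, ADE12, ADE13 and ADE17 held 1 each. All 12 matches began between 226 and 153 bases before the start codon. The windows of ADE4 and ADE6 held none. The longer TGACTCA was found only in ADE12 among the 10, against 164 of all windows (2.73%). Outside the ADE genes, TGACTC was found in 7 of 9 windows of genes of one-carbon metabolism, which supplies formyl groups to the pathway, and in 6 of 7 histidine pathway windows. It was found in 2 of 11 windows of salvage and uptake genes, and in none of those of ADE16, BAS1, PHO2, the 5 PRPP synthetase genes and the 4 GMP branch genes. A match in the letters is not evidence that a factor binds there.

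No ADE gene passed the test between any 2 of the 3 strains, by edgeR's quasi-likelihood method with Benjamini-Hochberg adjustment over all 5660 genes at 0.05. The 10 genes covered a 13.4-fold range of levels, and their order was the same in K467N, K467R and WT means. The outermost limits of the 95% intervals over the 10 genes were 0.848-fold and 1.1-fold for K467N against WT. They were 0.831-fold and 1.25-fold for K467R against WT, and 0.787-fold and 1.21-fold for K467N against K467R. Those intervals came from 1 fit in which the spread was estimated over all 18 libraries, 6 a strain. Libraries of the third strain thus bear on each interval. Without K467R 1 the standard error of ADE8 in K467N against WT was 0.0635, against 0.0803 with it. The intervals reached a median of 0.111 log2 units to either side of the estimate for the 10 genes, against 0.143 over all tested genes.

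**Figure D1:**
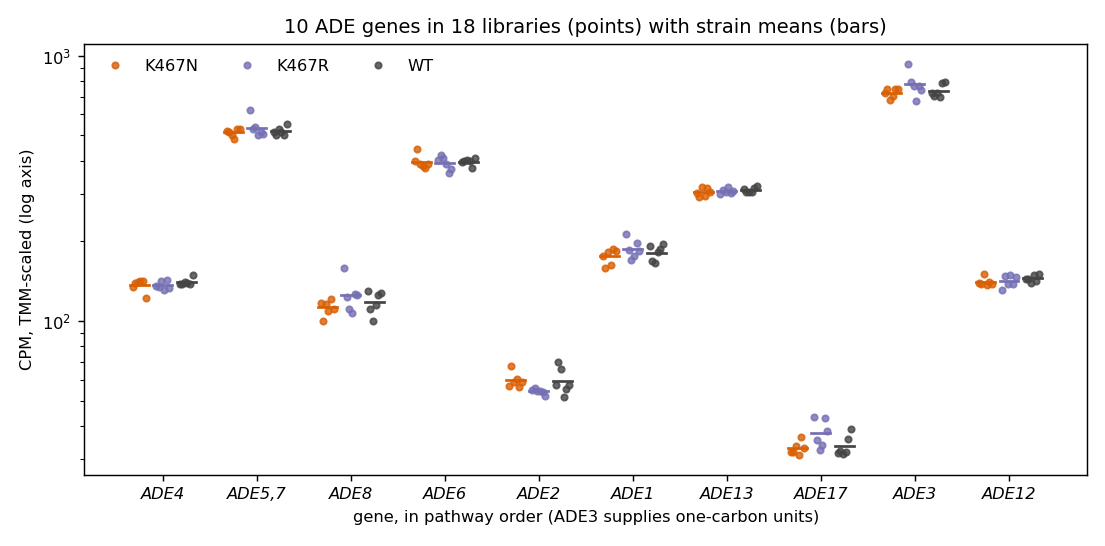
Level (CPM, TMM-scaled, log axis) of the 10 ADE genes in each of 18 libraries. Points are libraries, bars are strain means of 6, and the strains stand in the order K467N, K467R and WT. The clouds of the 3 strains lie on each other for most genes, and K467R 1 is the high point for ADE5,7, ADE8, ADE1 and ADE3.

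Levels are in CPM, each strain given by the lowest, median and highest of its 6 libraries, and differences are log2 fold changes ± standard error with 95% intervals from the edgeR fit. The adjusted p was 0.999 for every ADE gene in K467N against WT, at least 0.747 in K467R against WT and at least 0.408 in K467N against K467R.

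ADE4 encodes PRPP amidotransferase, the enzyme of the first committed step. Its level was 122, 139 and 141 CPM in K467N, 131, 134 and 143 CPM in K467R and 137, 138 and 149 CPM in WT. The ranges overlapped, with 1 low K467N library and 1 high WT library. The difference was -0.04 ± 0.0403 for K467N against WT (interval -0.13 to 0.04) and -0.04 ± 0.0404 for K467R against WT (-0.12 to 0.04). ADE5,7 encodes a protein with 2 activities, glycinamide ribotide synthetase and aminoimidazole ribotide synthetase. It was at 485, 517 and 530 CPM in K467N, 503, 522 and 621 CPM in K467R and 500, 515 and 553 CPM in WT. The 3 ranges overlapped, and the highest of the 18 values, 621 CPM, was library K467R 1. The fits gave -0.02 ± 0.0476 for K467N (-0.11 to 0.08) and 0.04 ± 0.0476 for K467R (-0.05 to 0.14), both against WT. Without K467R 1 the value for K467R was -0.0023 ± 0.0372.

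ADE8, the glycinamide ribotide transformylase, takes a formyl group from tetrahydrofolate. Libraries had 99.5, 114 and 121 CPM in K467N, 107, 124 and 158 CPM in K467R and 100, 120 and 130 CPM in WT. ADE8 was the most variable of the 10 genes within strains, with an SD of 0.152 on the log2 scale, and the 158 CPM was again K467R 1. All ranges overlapped. Against WT the fitted difference was -0.07 ± 0.0803 in K467N (-0.24 to 0.10) and 0.08 ± 0.0803 in K467R (-0.08 to 0.25). Without K467R 1, the difference for K467R was 0.0057 ± 0.0667. ADE6, the formylglycinamidine ribotide synthetase, had 376, 389 and 444 CPM in K467N, 360, 396 and 423 CPM in K467R and 377, 400 and 411 CPM in WT. The WT range lay within both other ranges. The difference from WT was -0.01 ± 0.0458 for K467N (-0.10 to 0.09) and -0.02 ± 0.0458 for K467R (-0.11 to 0.08).

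ADE2 encodes aminoimidazole ribotide carboxylase, whose loss gives the red colony colour of ade2 mutants. It was measured at 56.0, 58.5 and 67.4 CPM in K467N, 52.0, 54.3 and 55.9 CPM in K467R and 51.6, 57.1 and 69.9 CPM in WT. The K467R libraries were the tightest, and all of them lay below all K467N libraries, though the nearest libraries of the 2 strains were at 56.0 CPM in K467N and 55.9 CPM in K467R. They sat inside the WT range, which held the highest and the lowest values of all 18. ADE1, the next enzyme in the series and the one that makes the intermediate SAICAR, had 158, 179 and 187 CPM in K467N, 169, 184 and 213 CPM in K467R and 165, 183 and 194 CPM in WT. The differences were -0.05 ± 0.0585 for K467N against WT (-0.17 to 0.07) and 0.05 ± 0.0586 for K467R against WT (-0.07 to 0.17), with all ranges overlapping. The value for K467R was 0.0065 ± 0.0547 without K467R 1.

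ADE13, adenylosuccinate lyase, acts both on the way to IMP and in the AMP branch. It had 293, 305 and 319 CPM in K467N, 300, 307 and 319 CPM in K467R and 305, 310 and 321 CPM in WT. This was the steadiest of the 10 genes, with a within-strain SD of 0.0386 log2 units, and only 0.654% of all tested genes had a smaller one. Against WT the fit gave -0.03 ± 0.0325 for K467N (-0.095 to 0.04) and -0.02 ± 0.0326 for K467R (-0.087 to 0.049). ADE12, adenylosuccinate synthase, catalyses the step from IMP into the AMP branch. Its libraries gave 136, 138 and 150 CPM in K467N, 131, 142 and 149 CPM in K467R and 139, 144 and 150 CPM in WT, with overlap between all strains. The corresponding fits were -0.05 ± 0.0387 for K467N (-0.13 to 0.033) and -0.03 ± 0.0388 for K467R (-0.11 to 0.049). ADE3 encodes the cytoplasmic C1-tetrahydrofolate synthase, which prepares the formyl donor. It had 682, 732 and 748 CPM in K467N, 673, 768 and 933 CPM in K467R and 695, 722 and 795 CPM in WT. The K467R range enclosed the other 2, and 933 CPM was K467R 1. The difference was -0.03 ± 0.0602 for K467N against WT (-0.15 to 0.10) and 0.08 ± 0.0602 for K467R against WT (-0.04 to 0.21), which was 0.024 ± 0.0492 without K467R 1.

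ADE17 encodes AICAR transformylase and IMP cyclohydrolase, the last 2 activities before IMP, and ADE16 encodes the other isozyme of this enzyme. ADE17 was the lowest of the 10 genes, at 31.1, 32.6 and 36.4 CPM in K467N, 32.4, 37.0 and 43.5 CPM in K467R and 31.4, 32.2 and 39.1 CPM in WT. The K467R libraries spread upwards and overlapped both other strains. ADE16 had 299, 310.0 and 320.0 CPM in K467N, 292, 308 and 335 CPM in K467R and 310.0, 315 and 320.0 CPM in WT, with fits of -0.03 ± 0.0349 for K467N and -0.01 ± 0.0349 for K467R against WT. ADE17 made up 9.66 ± 0.429% of the counts of the isozyme pair in K467N, 10.7 ± 0.803% in K467R and 9.67 ± 0.758% in WT (SD, n = 6 each). The coding sequences of the pair are 74.96% identical over their alignment and neither shares a stretch of 50 bases with any other place in the genome.

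In K467N against WT, none of the 10 genes was called at an adjusted p of 0.05, where 0.0707% of all tested genes were. None had an unadjusted p under 0.05 either, a mark that 1.15% of all tested genes met, and none had libraries that did not overlap between the strains, as 0.124% of all genes did. The median log2 fold change of the 10 genes was -0.028 and ADE2 was the only 1 above 0. The median over all tested genes was 0.0003. DESeq2 and limma-voom also called none of the 10, and each called 4 of the 5660 genes tested.

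In K467R against WT, again none of the 10 was called, against 0.0707% of all tested genes. ADE2 and ADE17 had an unadjusted p under 0.05, which is 2 of 10 genes, where 5.67% of all genes did. The count was 0 of 10 without any 1 of the libraries K467R 1, K467R 5, K467R 6, WT 2 and WT 3, and 0 with only the 12 libraries compared. It was 1 of 10 under DESeq2 and under limma-voom. The 5.67% is that of the edgeR fit to all 18 libraries. Shares over all genes are not given here for the other settings, so their counts cannot be set against them. The fitted difference in ADE2 was -0.13 ± 0.0639 (-0.27 to -0.0005, adjusted p = 0.747 by edgeR's quasi-likelihood test) and that in ADE17 was 0.16 ± 0.0744 (0.0078 to 0.32, adjusted p = 0.747 by the same test). No gene of the 10 had libraries that did not overlap, against 0.283% of all genes. The log2 fold changes of the 10 genes had a median of 0.014, against -0.0065 over all genes, and 5 lay above 0. Without library K467R 1 the difference in ADE17 was 0.12 ± 0.0722 and that in ADE2 was -0.14 ± 0.0679. DESeq2 and limma-voom called none of the 10, and called 7 and 3 of the 5660 genes tested.

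In K467N against K467R, none of the 10 was called at an adjusted p of 0.05, against 0.0177% of all tested genes. ADE17 at -0.19 ± 0.0741 (-0.35 to -0.037) and ADE2 at 0.14 ± 0.0637 (0.0058 to 0.27) had an unadjusted p under 0.05, both with an adjusted p of 0.408 by edgeR's quasi-likelihood test. That is 2 of 10 genes, where 11.2% of all genes were under that mark. The count was 0 without K467R 5, and 0 with K467R 1 and K467N 2 both left out. It was 1 without K467R 1, K467R 6, K467N 2 or K467N 4, and 3 without K467R 3, K467R 4 or K467N 5. The 11.2% is that of the fit to all libraries, and shares over all genes are not given here for these refits. ADE2 was also the 1 gene of the 10 whose libraries did not overlap between these strains, against 0.283% of all genes. Next in order of p came ADE8 at -0.16 ± 0.0802 (-0.32 to 0.012) and ADE3 at -0.11 ± 0.0602 (-0.23 to 0.017). Without library K467R 1 these were -0.08 ± 0.0666 for ADE8 and -0.05 ± 0.0492 for ADE3, and ADE17 was at -0.15 ± 0.0719. The median over the 10 genes was -0.038, against 0.0071 over all genes, and 2 of the 10 lay above 0. The comparisons with WT share their WT libraries, and each mutant enters 2 of the 3 comparisons, so the 3 sets of values are not independent. DESeq2 and limma-voom called none of the 10 here either, and called 2 and 1 of the 5660 genes tested.

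**Figure D2:**
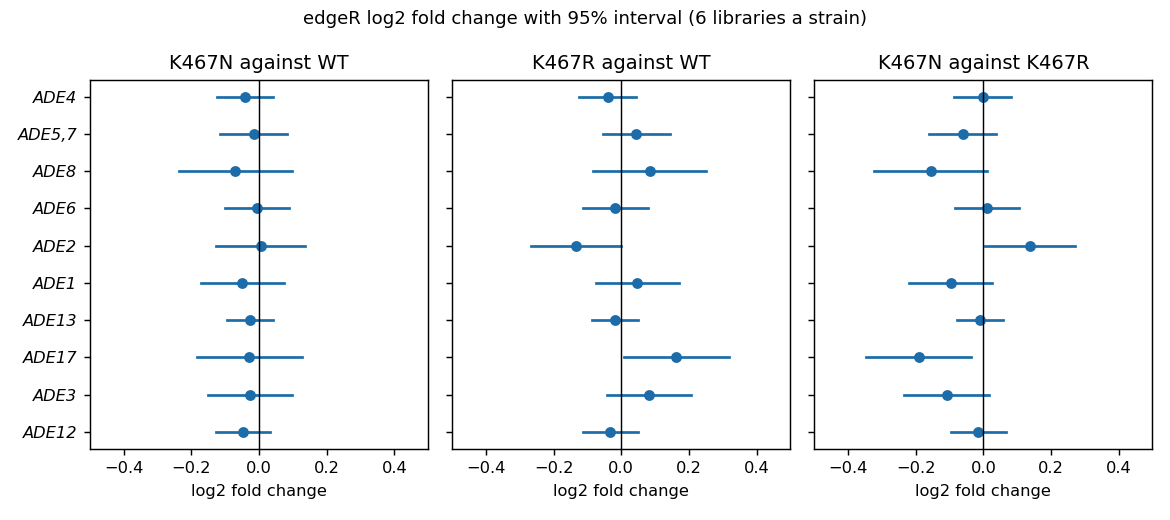
Log2 fold changes of the 10 ADE genes (points) with 95% intervals (lines) from the edgeR fit, for K467N against WT, K467R against WT and K467N against K467R, with 6 libraries a strain. All intervals lie within 0.35 of 0, and those of ADE2 and ADE17 exclude 0 only in the comparisons that involve K467R.

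The levels of different ADE genes were compared as CPM per kilobase of coding length, averaged over 18 libraries. ADE3 was highest at 263 CPM per kb, followed by ADE5,7 at 217, ADE13 at 213, ADE1 at 196 and ADE8 at 184 CPM per kb. A lower group held ADE12 at 109, ADE6 at 97.2 and ADE4 at 89.6 CPM per kb. ADE2 at 33.6 and ADE17 at 19.6 CPM per kb were below the median of all genes, 41.5 CPM per kb, and the other 8 were above it. The ratio of ADE3 to ADE17 was 13.7 in K467N, 12.9 in K467R and 13.7 in WT. ADE5,7 and ADE13 could not be ordered beyond their spread, as ADE5,7 was the higher of the pair in 11 of 18 libraries. ADE13 lay above ADE1 in 16 libraries, and ADE1 above ADE8, ADE12 above ADE6 and ADE6 above ADE4 in 17 each. The other neighbours in the order, ADE3 over ADE5,7, ADE8 over ADE12, ADE4 over ADE2 and ADE2 over ADE17, kept it in all 18 libraries. Within the pathway series the low gene ADE2 stands between ADE6 and ADE1, whose levels per kb were 97.2 and 196 CPM. ADE16, at 176 CPM per kb, stood next below ADE8 in the order, and ADE17 was the low gene of the isozyme pair.

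**Figure D3:**
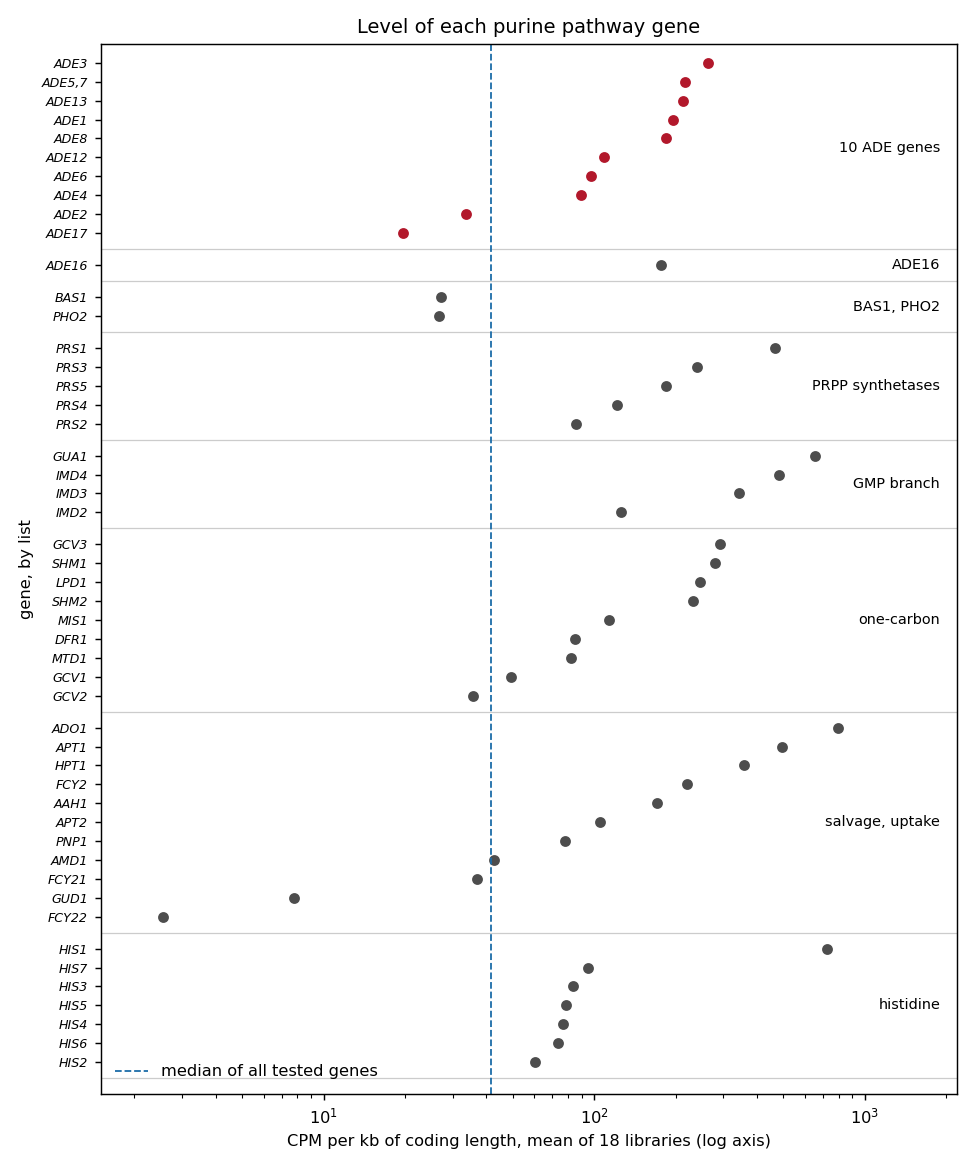
Mean level of each gene over 18 libraries, as CPM per kilobase of coding length on a log axis, for the 10 ADE genes (red) and 39 other genes of purine metabolism and linked pathways (grey). The dashed line is the median of all tested genes, 41.5 CPM per kb, and 8 of the 10 ADE genes lie to its right. HIS3 averages over K467R libraries with 0 or 1 counts.

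Within strains the 10 genes did not move as 1 block from library to library. Each library's log2 CPM was taken relative to its strain mean, and Pearson's r over the 18 libraries was computed for the 45 pairs of ADE genes. These are descriptions: all genes share the library, its depth and its scaling. The value was at least 0.5 in 10 pairs and below 0 in 21. ADE1 and ADE8 were the pair most alike, with r = 0.909 (Spearman's rho 0.884), and r = 0.872 without the 2 libraries farthest from the median in ADE1. They lay on the same side of their strain means in 15 of 18 libraries. ADE8 and ADE1 also have the shortest coding sequences of the 10 genes, at 645 and 921 bases. ADE3 and ADE5,7 had r = 0.817 (rho 0.713), and 0.569 without K467R 1 and K467R 4, the farthest libraries in ADE3. ADE1 and ADE17 had r = 0.795 (rho 0.746), and 0.693 without the 2 libraries farthest in ADE1.

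The 10 pairs among ADE1, ADE3, ADE5,7, ADE8 and ADE17, a set noticed after its values were seen, had r between 0.481 and 0.909. Without K467R 1 and K467N 2 they ranged from 0.261 to 0.869. With the 2 libraries farthest in the first gene of each pair left out instead, they ranged from -0.01 to 0.872, and ADE5,7 with ADE17 (-0.01), ADE5,7 with ADE8 (0.063) and ADE3 with ADE8 (0.233) were the lowest. The windows of all 5 hold TGACTC, and so do those of ADE2, ADE12 and ADE13, which lie outside the set. The other 35 pairs ranged from -0.572 to 0.639, with ADE12 and ADE13 the highest among them. ADE2, whose window holds 2 copies of the motif as ADE1's does, was on the same side of its strain mean as ADE1 in 2 of 18 libraries, with r = -0.551 (rho -0.517) and -0.702 without the 2 libraries farthest in ADE1. This value depended on the treatment of gene length: once a fitted dependence on coding length was subtracted per library, it was -0.161. Values with that dependence subtracted are not given here for the other pairs, so their likeness may also depend on gene length. ADE3 and ADE12 had r = -0.572, but -0.161 without K467R 1 and K467R 4, the farthest libraries in ADE3, and -0.332 without K467R 1 and K467N 2.

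**Figure D4:**
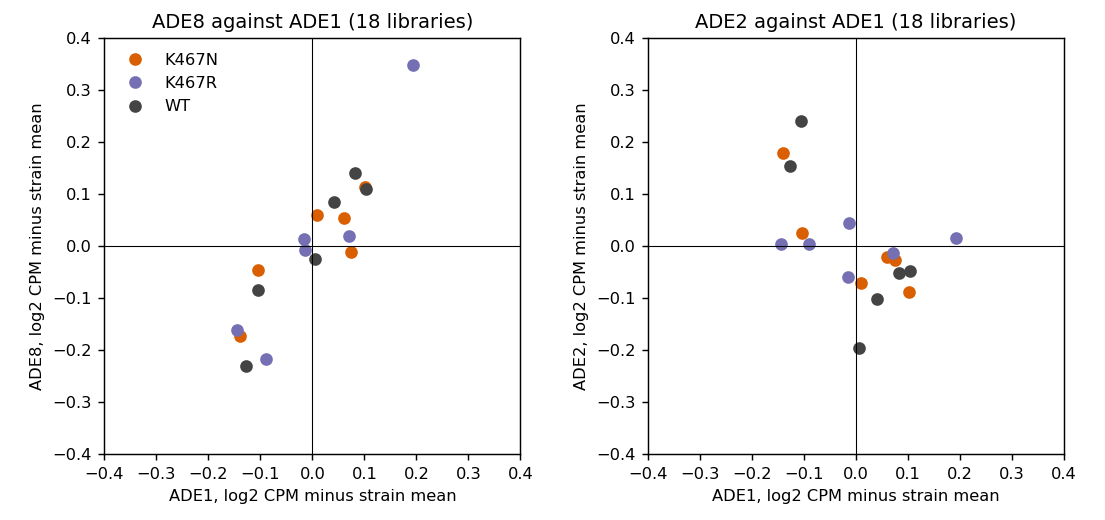
Deviation of log2 CPM from the strain mean in each of 18 libraries, for ADE8 (left) and ADE2 (right) against ADE1, with K467N in orange, K467R in purple and WT in grey. ADE8 follows ADE1 (r = 0.909), with K467R 1 at the upper right, and ADE2 lies mostly on the other side of 0 from ADE1 (r = -0.551).

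Single libraries differed in how many ADE genes lay above the strain mean. WT 6 had 9 of 10 above it, all but ADE2, with a mean deviation of 0.082 log2 units, while 48.8% of all tested genes were above theirs. K467R 1 had 7 of 10 above, where 49.1% of all tested genes were, and a mean deviation of 0.114. In that library ADE8 was at 0.349 and 4 of 10 ADE genes were more than 0.2 log2 units from the mean, near the 33.9% of all tested genes. K467N 5 also had 7 above, where 49.5% of all tested genes were. K467N 4 and WT 2 had 2 above each, where 52.9% and 52.8% of all tested genes were. Since K467R 1 was among the highest libraries for ADE1, ADE3, ADE5,7, ADE8 and ADE17 and set apart over all genes, K467R against WT was fitted again without it. The differences were then 0.0065 for ADE1, 0.024 for ADE3, -0.0023 for ADE5,7, 0.0057 for ADE8 and 0.12 for ADE17, against 0.048, 0.082, 0.045, 0.084 and 0.16 with it. The median log2 fold change of the 10 genes in K467R against WT was then -0.0065.

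**Figure D5:**
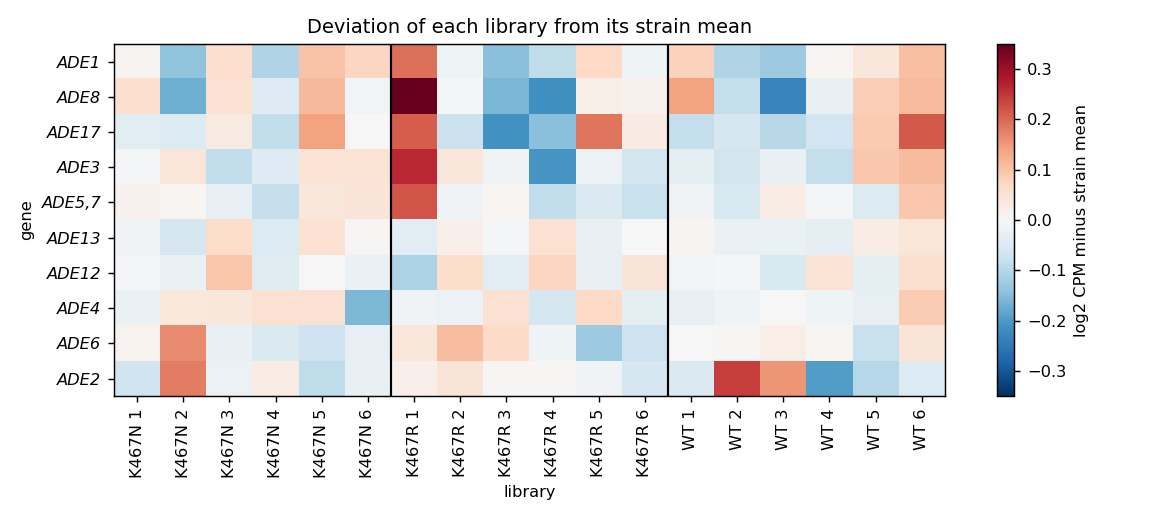
Log2 CPM of each ADE gene minus its strain mean (colour scale in log2 units) in the 18 libraries, grouped as K467N, K467R and WT. K467R 1 is above its mean in the 5 upper rows, with ADE8 at 0.349, and ADE2 in the bottom row is highest in WT 2 at 0.241.

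The genes outside the 10 whose deviations were most like the mean deviation of the ADE genes were SRL1 (r = 0.939, rho 0.864), FRS2 (r = 0.938, rho 0.851), CDC19 (r = 0.932, rho 0.862), HSP150 (r = 0.926, rho 0.853) and CAM1 (r = 0.924, rho 0.849), over 18 libraries and out of 5144 genes with at least 5 CPM. Without WT 6 and K467R 1, the libraries with the largest mean deviation of the ADE genes, these r ranged from 0.826 to 0.866. An r of at least 0.8 was met by 145 genes, or 2.82% of those ranked. The mean deviation does not stand for each ADE gene, as 21 of their 45 pairs had r below 0. FRS2 encodes a subunit of phenylalanyl-tRNA synthetase and CDC19 the main pyruvate kinase.

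Bas1 and Pho2, the activators of the pathway, are encoded by genes of low level, 27.1 CPM per kb for BAS1 and 26.6 CPM per kb for PHO2. BAS1 had 57.1, 67.1 and 73.2 CPM in K467N, 60.8, 66.2 and 69.4 CPM in K467R and 54.8, 65.0 and 80.6 CPM in WT. PHO2 had 41.8, 44.7 and 49.2 CPM in K467N, 38.1, 46.6 and 52.1 CPM in K467R and 37.7, 43.5 and 46.7 CPM in WT. Neither passed the test in any comparison, and the fits against WT were 0.03 ± 0.0806 in K467N and -0.01 ± 0.0809 in K467R for BAS1, and 0.05 ± 0.0688 in K467N and 0.07 ± 0.069 in K467R for PHO2.

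The 39 other genes of purine metabolism and linked pathways were tested in the same fit. In K467N against WT none of the 39 passed, against 0.0707% of all tested genes. None had an unadjusted p under 0.05, where 1.15% of all tested genes did. HIS3 was the only one of the 39 to pass in K467R against WT and the only one in K467N against K467R. Of all tested genes, 0.0707% and 0.0177% passed there. In each of these comparisons 3 of the 39, HIS3 among them, had an unadjusted p under 0.05. The shares of all tested genes were 5.67% in K467R against WT and 11.2% in K467N against K467R. HIS3 encodes imidazoleglycerol-phosphate dehydratase of histidine synthesis, and it had 1154 to 1320 counts in K467N libraries, 0 or 1 in K467R libraries and 1017 to 1793 in WT libraries. Its adjusted p was 1.53e-21 in K467R against WT and 2.06e-21 in K467N against K467R by edgeR's quasi-likelihood test. The HIS3 counted here is YOR202W on chromosome XV, and the labels do not give the strains' genotype at that locus. The marker at the tagged locus, which differs in K467R, is a histidine gene. Whether the marker or the genotype at HIS3 bears on the count was not tested.

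The PRPP synthetases make the substrate of the pathway, and none of the 5 genes passed in any comparison. PRS4 came closest in K467N against WT, at -0.06 ± 0.0353 (-0.13 to 0.013), and PRS3 in K467R against WT, at -0.04 ± 0.0331 (-0.11 to 0.024). In the GMP branch, IMD4, an IMP dehydrogenase gene, had 740.0, 787 and 804 CPM in K467N, 672, 727 and 755 CPM in K467R and 729, 766 and 805 CPM in WT. Its fitted difference was 0.11 ± 0.0393 in K467N against K467R (0.031 to 0.19) and -0.09 ± 0.0393 in K467R against WT (-0.17 to -0.0063), and it passed in neither comparison after adjustment (adjusted p = 0.408 and 0.747 by edgeR's quasi-likelihood test). IMD2, IMD3 and IMD4 are alike in sequence, with 66.32%, 83.39% and 92.99% of their stretches of 50 bases found once in the genome, and another annotated gene overlaps IMD4. Their counts are therefore less certain than those of the ADE genes. GUA1, the GMP synthetase gene, had 996 to 1050 CPM in K467N, 1000 to 1070 CPM in K467R and 993 to 1040 CPM in WT.

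None of the 9 genes of one-carbon metabolism passed in any comparison. SHM2, the cytoplasmic serine hydroxymethyltransferase gene, had a fitted difference of 0.11 ± 0.0596 in K467R against WT (-0.014 to 0.23). GCV3, a subunit gene of the glycine decarboxylase complex, had 115, 147 and 154 CPM in K467N, 141, 151 and 215 CPM in K467R and 123, 150.0 and 166 CPM in WT. Its difference in K467N against K467R, -0.20 ± 0.101 (-0.41 to 0.007), was the largest of the list, and its within-strain SD of 0.195 was the widest. None of the 11 salvage and uptake genes passed. ADO1, the adenosine kinase gene, was the highest of the 10 ADE genes and the 39 other pathway genes at 794 CPM per kb, with a fitted difference of -0.14 ± 0.069 in K467N against K467R (-0.28 to 0.0085). HPT1, the hypoxanthine-guanine phosphoribosyltransferase gene, had one of -0.13 ± 0.0642 in that comparison (-0.26 to 0.0055). In the histidine pathway, which draws on PRPP and releases the purine intermediate AICAR, HIS4 had a fitted difference of 0.14 ± 0.0613 in K467R against WT (0.011 to 0.27, adjusted p = 0.747 by edgeR's quasi-likelihood test). Of HIS1 to HIS7, HIS3 alone passed.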

How the data were processed

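The authors deposited raw counts per gene for 18 libraries. Per the labels' protocols, RNA was made into stranded poly(A) libraries. Per the submitters' processing notes, the tools were HTSeq 0.6.1p1, STAR 2.5.3a and bcl2fastq 2.20.0.422. The build is not given in the sources used here, nor is the strand setting. Of all deposited counts, including those in rows naming no gene, 75.3 to 76.2% were on genes. Rows naming no gene were left out.

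Counts were fitted in edgeR 4.0.16 (filterByExpr, TMM, robust quasi-likelihood, all 18 libraries, strain as the only term), with Benjamini-Hochberg adjustment at 0.05 over 5660 genes. DESeq2 1.42.0 and limma-voom (limma 3.58.1) were alternatives. Per-library deviations used log2 CPM with a prior count of 2. Coding lengths, names and windows came from RefSeq R64 by identifier.

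The members, the pathway lists and the tests were chosen with earlier results of these data known. Named genes are the 10 members, BAS1, PHO2, ADE16, HIS3, the 2 genes of smallest p per list and comparison, from which examples are printed, and the 5 genes most like the members' mean deviation.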

Additional observations from a re-analysis of the deposited data

Results flagged for a closer look

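In 5 of 30 groups, a group being 1 ADE gene in 1 strain, a single library lay apart from the other 5 by Dixon's criterion at 95%, which flags about 1 in 20 groups by chance. ADE4 was low in K467N 6, at 122 CPM with the nearest library at 134 CPM. It was high in WT 6, at 149 CPM against 140.0 CPM in the nearest library. ADE5,7 was high in K467R 1, at 621 CPM with the nearest at 537 CPM, in the library that stood apart over all genes. ADE6 was high in K467N 2, at 444 CPM with the nearest at 399 CPM. ADE12 was high in K467N 3, at 150.0 CPM with the nearest at 140.0 CPM. The causes were not tested.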

How the results depend on the processing

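Over all genes, only 1 to 7 of the 4971 to 6703 tested were called, by comparison and setting. No ADE gene was called in any of the 3 comparisons under any of 27 alternative settings. These were other scalings, other filters, DESeq2, limma-voom, 12 libraries only, 2 libraries left out, a coding-length trend removed and each library left out in turn, with K467R 1 and K467N 2 the 2 libraries left out together. The lowest adjusted p of an ADE gene over all of them was 0.218, for ADE3 in K467N against K467R without K467R replicate 4. The median log2 fold change of the 10 genes ranged from -0.042 to -0.012 in K467N against WT, from -0.0065 to 0.028 in K467R against WT and from -0.046 to -0.026 in K467N against K467R when single libraries were left out. With the coding-length trend removed, the median in K467N against K467R was -0.083, against -0.038, and the cause was not tested. Of 810 recomputed differences of ADE genes, 31 changed sign, none of them called. Of 36 recomputed counts of ADE genes above the strain mean in a library, 6 moved by more than 1.5 times. With the coding-length trend removed the count was 1 against 5 in K467N 2, 1 against 4 in K467R 3, 8 against 3 in WT 1, 1 against 2 in WT 2 (as with DESeq2 size factors) and 1 against 4 in WT 3. No paired analysis was possible because replicate numbers only follow accession order. The likeness of gene pairs was recomputed with alternatives chosen after seeing the data.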
